A study of Mus musculus with 24 samples.

Results

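The regions described here are 965 tiles of 10 kb, stretches of mouse autosome laid end to end, at which DNA methylation was lower in wild-type embryoid bodies than in the wild-type stem cells they were made from. A tile was eligible when each of the 12 libraries had 100 or more calls in it, a call being 1 sequenced read at 1 CpG scored as methylated or not. The methylation level is the percentage of calls that were methylated. A tile was kept when the level in wild-type bodies was 5 or more percentage points below the mean of the 3 wild-type stem cell stages. This left 965 of 215255 eligible tiles (0.448%), out of 239710 autosomal tiles with a CpG. The tiles were thus chosen by the wild-type levels in these 4 stages, so wild-type values are given as a description and only the clones were tested.

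The cells were mouse induced pluripotent stem (iPS) cells grown over feeder cells, and methylation was read by oxidative bisulfite whole-genome sequencing, which leaves hydroxymethylcytosine out of the methylated calls. Wild-type cells were compared with N5 and N9, a pair of clones that carry a knock-in of the microRNA miR-203 switched on by doxycycline. Each was sampled at t=0, before doxycycline, at day 10 and day 25, which the design places 5 and 20 days after a doxycycline treatment of 5 days, and as embryoid bodies made in hanging drops. The label of the wild-type bodies gives 10 days of differentiation where the design gives 7, and the wild-type stages carry the same labels of time after doxycycline as the clones. The 24 samples are 2 lanes of each of 12 libraries, with 1 library per line and stage, and the knock-in is represented by these 2 clones alone.

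Methylation of cytosine in CpG pairs is placed by the DNMT3 enzymes and copied at replication by DNMT1, while TET enzymes oxidise it and start its removal. Most of the mammalian genome is highly methylated, with dips at CpG-rich promoters and at enhancers bound by transcription factors. In embryoid bodies pluripotent cells aggregate and begin to differentiate, and methylation usually rises across the genome as pluripotency is left. Tiles that go the other way therefore stand against the general course of these libraries, whose median tile was 8.53 points higher in wild-type bodies than in the wild-type iPS stages.

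Promoter sequences from RefSeq (build GRCm38.p6, 250 bases before to 50 after a gene's start, 5′ to 3′ on the gene's strand) are shown for 4 genes whose start lies in one of these tiles, with each CpG in capitals. Pou5f1 (chr17:35505782-35506081, plus strand) encodes OCT4, a core pluripotency factor. Tdgf1 (chr9:110946109-110946408, minus strand) encodes CRIPTO, a co-receptor of NODAL. Dnmt3l (chr10:78042037-78042336, plus strand) encodes the cofactor of the DNMT3 enzymes. The RIKEN gene 0610005C13Rik (chr7:45575127-45575426, minus strand) lies in the tile named for Bcat2 and was added after its values were seen, because both clones were lower there in bodies. The tile itself (chr7:45570001-45580000, over Bcat2, an enzyme of branched-chain amino acid breakdown) fell in the clones as well (-10.2 ± 0.82 points from t=0, SD, n = 2 clones; adjusted p = 0.000838 in edgeR's quasi-likelihood test).
Pou5f1: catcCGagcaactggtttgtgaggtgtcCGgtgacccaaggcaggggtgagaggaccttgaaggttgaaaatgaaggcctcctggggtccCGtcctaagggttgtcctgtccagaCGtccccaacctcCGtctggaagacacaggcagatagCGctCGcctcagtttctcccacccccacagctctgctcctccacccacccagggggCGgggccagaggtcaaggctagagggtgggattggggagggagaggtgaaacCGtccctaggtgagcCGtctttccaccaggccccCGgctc
Tdgf1: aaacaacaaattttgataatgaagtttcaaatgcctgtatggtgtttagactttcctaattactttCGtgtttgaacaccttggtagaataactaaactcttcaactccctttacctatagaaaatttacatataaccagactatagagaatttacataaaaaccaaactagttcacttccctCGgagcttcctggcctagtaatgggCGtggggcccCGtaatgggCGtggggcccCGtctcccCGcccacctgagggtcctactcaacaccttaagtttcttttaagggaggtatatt
Dnmt3l: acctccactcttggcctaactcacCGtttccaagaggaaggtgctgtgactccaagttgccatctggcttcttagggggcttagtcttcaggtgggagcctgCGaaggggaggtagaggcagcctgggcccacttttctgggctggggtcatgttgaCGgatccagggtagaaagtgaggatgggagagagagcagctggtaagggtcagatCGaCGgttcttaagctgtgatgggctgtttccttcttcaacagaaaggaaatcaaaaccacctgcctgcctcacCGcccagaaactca
0610005C13Rik: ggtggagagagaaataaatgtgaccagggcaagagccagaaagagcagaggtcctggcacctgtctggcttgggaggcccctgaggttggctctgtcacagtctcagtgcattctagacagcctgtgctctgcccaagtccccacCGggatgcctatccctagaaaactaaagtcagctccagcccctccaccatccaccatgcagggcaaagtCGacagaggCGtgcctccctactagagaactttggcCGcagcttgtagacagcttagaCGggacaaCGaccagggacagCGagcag

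At the Pou5f1 promoter, 9 of 40 calls were methylated in the wild type at t=0 (22.5%, 95% Wilson interval 12.3 to 37.5) and 3 of 71 in wild-type bodies (4.23%, 1.45 to 11.7). The same window went from 3 of 44 calls to 0 of 57 in N5 and from 17 of 64 to 6 of 79 in N9. The 0 of 57 calls allow a level of up to 6.31% by the Wilson interval, so the window was at the low end in the bodies of each line. At the Tdgf1 promoter the wild type went from 12 of 74 to 4 of 78 methylated calls, though wild-type day 25 was already at 1 of 51. N5 had 1 of 49 at t=0 and 1 of 58 in bodies there, and N9 had 6 of 73 and 0 of 55. The Dnmt3l window is part of a tile that was lower in wild-type bodies, but was itself methylated at 53.8% (21 of 39 calls) at t=0 and 67.2% (45 of 67) in bodies. It does not stand for the gene, which has other RefSeq starts in these tiles. At the one of chr10:78055085-78055384, with 9 to 30 calls per library, the wild type had 11.1%, 3.70% and 5.88% in iPS stages and 0.00% in bodies. From t=0 to bodies N5 went from 29.4% to 41.7% there and N9 from 16.7% to 26.3%. At 0610005C13Rik, N5 went from 30 of 68 methylated calls (44.1%, 33.0 to 55.9) to 10 of 77 (13.0%, 7.21 to 22.3), and N9 from 56 of 97 (57.7%, 47.8 to 67.1) to 15 of 63 (23.8%, 15.0 to 35.6). The wild type was at 11.1% there at t=0 and at 2.90% in bodies, so the clones started higher. The Bcat2 starts in the same tile did not fall in both clones. From t=0 to bodies the window chr7:45569903-45570202 changed by 2.51 points in N5 and 7.51 points in N9. The window chr7:45571029-45571328 changed by 6.27 and -4.84 points. These windows were not tested, and their intervals cover counting error only.

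Across the genome the libraries held 102896335 to 191210205 calls, or 4.70 to 8.74 per CpG. A tile with a wild-type drop had a median 95% Wilson half-width of 3.55 points at t=0 and 3.21 points in bodies, and at most 9.11 points, counting error only. N5 at t=0, day 25 and in bodies was read on another flow cell than the other 9 libraries, so the change from t=0 to bodies is within a flow cell in each clone. For chromosome Y, the ratio of the coverage of its first 3.5 Mb to that of chromosome 5 reached 0.0370 (N5) and 0.0386 (N9) in the t=0 clones. It was 0.0122 and 0.0103 in the day 25 clones, against 0.0002 to 0.0018 in the other 8 libraries. Its part in the comparisons with t=0 or day 25 was not tested. Comparisons with day 10, whose clone libraries had 0.0012 and 0.0009, are given beside them. The labelled cell type could be compared with methylation only, not with marker RNA. The 75 tiles of 23 pluripotency genes were methylated at 33.5% in the wild type at t=0, against 57.0% over tiles in protein-coding genes. Other lists were also low there, at 14.25% (Hox), 27.5% (primitive streak), 36.53% (trophoblast) and 37.51% (neural). The remaining lists and gene families stood between 46.56% (surface epithelium) and 67.96% (Olfr). The low level is thus not particular to pluripotency genes and does not identify the cell type.

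Wild-type bodies were a median of 6.66 points below the iPS mean at the 965 tiles, and 22.99 points below at the tile with the largest drop. Drops of 10 points or more were found at 120 tiles and of 15 points or more at 13. Over all eligible tiles, only 3.84% were lower in wild-type bodies by any amount. The 3 wild-type iPS stages themselves spanned a median of 5.17 points at these tiles, and bodies were below each of them at 915 tiles, by 5 points or more at 384. Each wild-type stage was deposited as a pair of columns, and bodies were below the iPS mean in both columns at 879 of the 965 tiles. They were 5 or more points below it in both columns at 438. The 3 tiles just inside the threshold, near Edil3 and in Ckm with Mark4 and in Ogfrl1, stood 5 points below when rounded to 2 decimals. The 3 just outside, in Lrrn1, in Nxf1 with its neighbours and in Cfap20dc, had changes of -4.98 points.

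In the wild type these tiles had a median level of 44.6% before doxycycline, of 46.1% and 45.4% at day 10 and day 25, and of 37.5% in bodies, the value the rule chose. N5 stood at 48.2%, 40.1%, 29.4% and 49.7% from t=0 to bodies. N9 stood at 48.2%, 41.5%, 29.1% and 48.7%. Both clones thus dipped at day 25, to below the wild-type bodies, and were back at or above their t=0 median in bodies. Their bodies were above the wild-type bodies by a median of 9.54 points in N5 and 10.4 points in N9, against 2.07 and 2.6 points over all tiles. Both clones were higher at 913 of the 965 tiles. At t=0 the same differences were 0.86 and 0.73 points, against 3.88 and 3.8 points over all tiles. The wild-type body level is part of the rule, so this gap is a description.

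**Figure D1:**
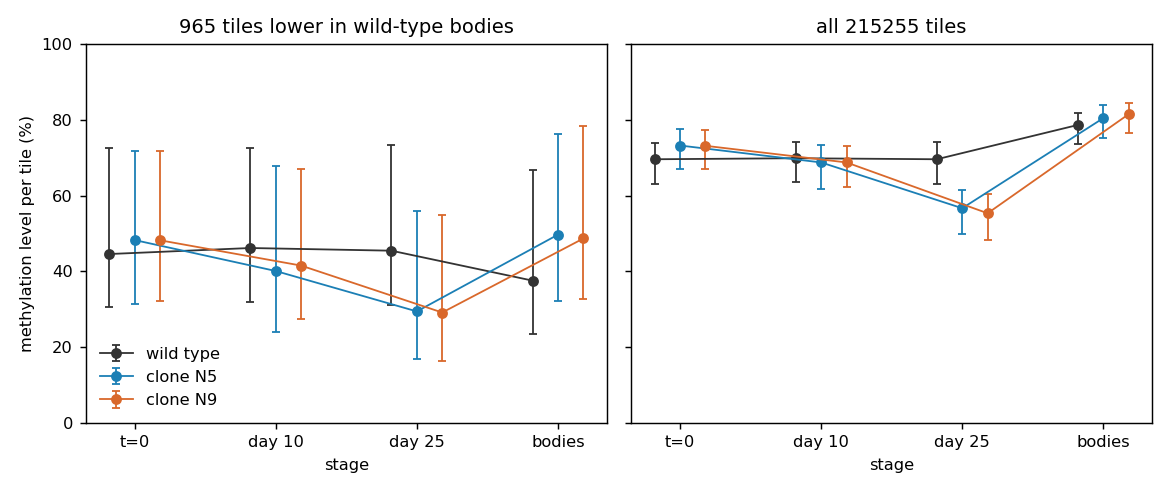
Median methylation level per tile (vertical axis, %) at 4 stages (horizontal axis) in the wild type and clones N5 and N9, for the 965 tiles (left) and all 215255 eligible tiles (right). Bars span the first to the third quartile over tiles. On the left the wild type ends at 37.5% and the clones at 49.7% and 48.7%; on the right the median of each line ends above its t=0 value.

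The clones' bodies were called lower, as the wild-type bodies were, at few of these tiles. From t=0 to bodies, 52 of the 965 tiles (5.39%) fell, 131 (13.6%) rose and 782 (81.0%) passed in neither direction in edgeR's quasi-likelihood test over all eligible tiles, at a Benjamini-Hochberg adjusted p under 0.05. Over all 215255 tiles, 0.112% fell and 62.0% rose. The adjustment was made over both directions together, and 133513 tiles rose where 241 fell. The threshold therefore does not bound the share of false calls among the tiles that fell. The median change at the 965 tiles was 1.68 points in N5 and 2.13 points in N9, against 6.89 and 7.60 points over all tiles. Both clones were lower in bodies than at t=0 at 186 of the tiles (19.3%, against 1.16% of all tiles) and higher at 447 (46.3%, against 88.1%). In clone bodies the group was thus back near its t=0 level after a lower day 25, while the median over all tiles was above t=0. Without N9 at t=0 the tiles that fell came to 3.11%, and with day 10 in place of t=0, where chromosome Y coverage was low in each clone library, to 10 tiles (1.04%, against 0.0269% of all tiles), with 570 (59.1%, against 88.8%) risen. Without N5 at t=0, N9 at t=0 or N9 in bodies the tiles that rose came to 7.46%, 6.94% and 7.56%.

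Against the mean of the clones' own 3 iPS stages, the contrast the rule used in the wild type, 7 tiles fell (0.725%, against 0.00557% of all tiles) and 813 rose (84.2%, against 97.7%). Here the dip of the clones at day 25 enters the mean. Against day 25 alone, 0 of the 965 tiles fell (0.00%, as over all tiles; 0 by limma, and 0 with p unadjusted) and 942 rose (97.6%, against 99.8%). Leaving out N9 at day 25 gave 2 tiles that fell and leaving out N5 in bodies gave 1.

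**Figure D2:**
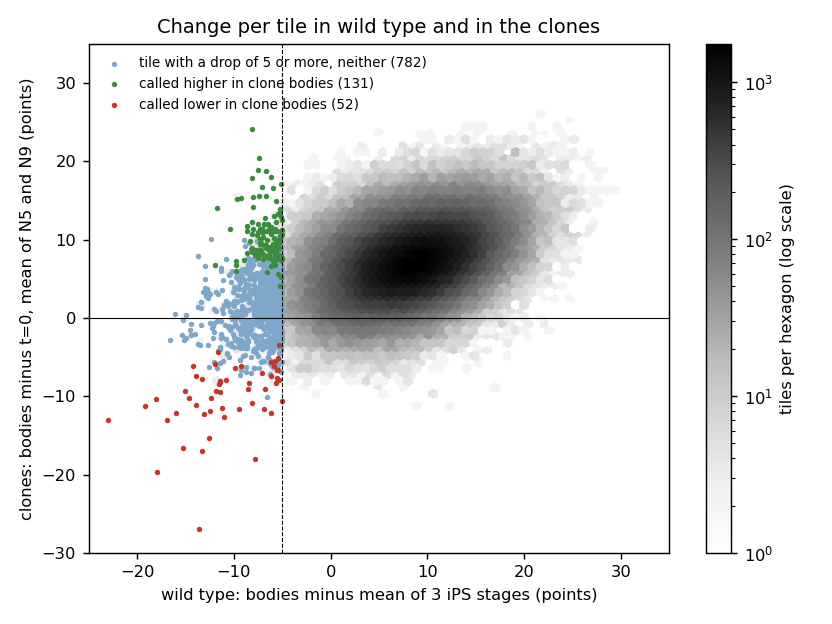
Each tile's change in the wild type (horizontal axis, bodies minus the mean of 3 iPS stages, points) against its change in the clones (vertical axis, bodies minus t=0, mean of N5 and N9, points). Grey hexagons count all eligible tiles on a log scale, and the dashed line marks the 5-point threshold. Left of it, 52 tiles are called lower in clone bodies (red), 131 higher (green) and 782 neither (blue).

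The share of tiles that fell in the clones was higher where the wild-type drop was larger. Among the 13 tiles with a drop of 15 points or more, 8 fell in clone bodies and 0 rose (edgeR; limma gave 0 as well, as did unadjusted p under 0.05 in both), with a median clone change of -10.3 points. Of the 107 tiles with drops between 10 and 15 points, 21 fell and 3 rose, with a median of -1.12 points. Of the 615 tiles nearest the threshold, with drops of 5 to 7.5 points, 16 fell and 101 rose, with a median of 2.96 points. The trend went on past the threshold: of the 7299 tiles that were 0 to 5 points lower in wild-type bodies, 70 fell and 1900 rose. Across the 965 tiles the wild-type and clone changes had a Pearson r of 0.334 and a Spearman rho of 0.217, a description over tiles that share their libraries. Over all 215255 tiles they were 0.376 and 0.353. N5 and N9 changes correlated at 0.387, against 0.252 over all tiles.

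**Figure D3:**
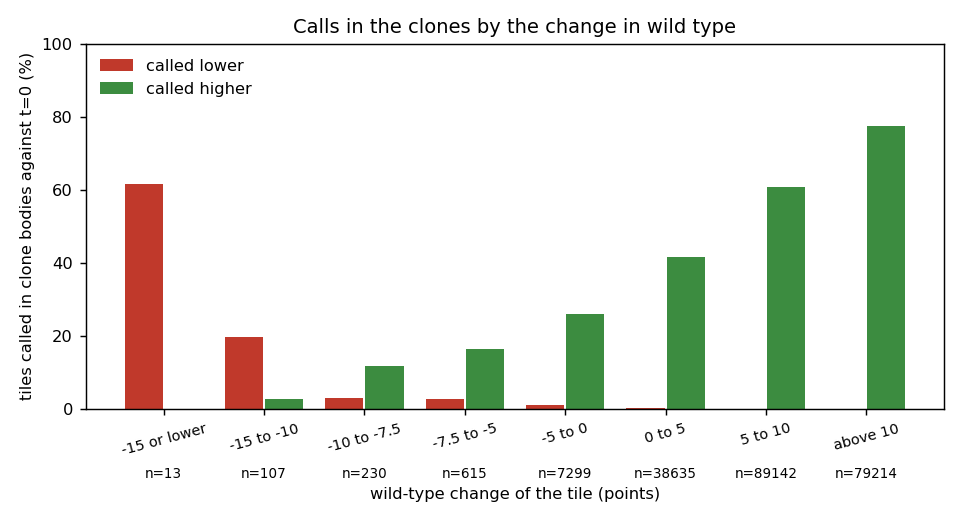
Percentage of tiles called lower (red) or higher (green) in clone bodies than at t=0 (vertical axis) by the change of the tile in the wild type (horizontal axis, points), with the number of tiles under each pair of bars. Calls of lower go from 61.5% where the wild type dropped most to 0.0114% where it gained more than 10 points.

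The starting level also separated the tiles. Among the 293 tiles that were methylated at 70% or more in wild-type iPS cells, 1 fell (0.341%, against 0.0151% of all tiles at that level) and 71 rose (24.2%, against 57.6%). Their median change was 5.4 points, against 6.42 points. By depth, of the 324 tiles with fewer than 200 calls in some library, 4 fell (1.23%, against 0.0344% of all tiles of that depth) and 75 rose (23.1%, against 39.6%). Among the 322 tiles with an iPS level of 30 to 50%, 23 fell (7.14%, against 0.547%) and 31 rose (9.63%, against 50.3%), with a median change of 0.85 points, where all tiles of that level had 6.95. Among the 208 tiles under 30%, 16 fell (7.69%, against 1.56%) and 10 rose (4.81%, against 25.6%), with a median of -0.11 points against 2.63.

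Of the 12 tiles with the largest wild-type drop, 7 also fell in clone bodies. The largest drop lay between genes at chr13:66710001-66720000, 29198 bp from Zfp640, a zinc finger gene, with levels of 44.1%, 41.8% and 30.2% in wild-type iPS stages and 15.7% in bodies. N5 went from 41.9% at t=0 to 30.2% in bodies and N9 from 36.9% to 22.5%, a change of -13.03 ± 1.88 points (SD, n = 2 clones; adjusted p = 0.00546). It is thinly covered, with 1.95 calls per CpG, and the call was lost without N5 at t=0 (adjusted p = 0.0782) or N9 in bodies (0.113). It was also lower than at day 10 (adjusted p = 0.00374).

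Skap1, an adaptor protein of T-cell receptor signalling, had a tile with similar changes in both clones (chr11:96690001-96700000, inside the gene, 162 CpGs). Its level was 51.9%, 57.2% and 50.8% in wild-type iPS stages and 35.4% in bodies. N5 had 62.3%, 50.2%, 35.2% and 42.0% at t=0, day 10, day 25 and in bodies, and N9 had 59.8%, 49.3%, 37.5% and 40.8%. In both clones bodies lay below t=0 and day 10 and above day 25. The change from t=0 was -19.7 ± 0.86 points (SD, n = 2; adjusted p = 1.17e-05), and the change from day 10 was -8.36 points (adjusted p = 0.00678).

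Glo1 encodes glyoxalase 1, which detoxifies methylglyoxal. Its tile (chr17:30600001-30610000) had 35.5%, 39.9% and 39.0% in wild-type iPS stages and 18.96% in bodies. N5 went from 37.7% at t=0 to 21.0% and 14.4% at days 10 and 25 and back to 27.9%, and N9 from 39.1% to 34.6%, 14.2% and 26.5%. Bodies were below t=0 in both clones, with a change of -11.2 ± 1.97 points (adjusted p = 0.00428), and from day 10 the change was -0.59 points (adjusted p = 0.910).

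The tiles of Patl2, an RNA-binding protein of the oocyte, Paqr8, a membrane progesterone receptor, Ppp2r5c, a regulatory subunit of protein phosphatase 2A, and Neo1, the receptor neogenin, also fell from t=0, with changes of -10.3 ± 5.80, -13.1 ± 1.49, -12.2 ± 4.94 and -16.6 ± 7.92 points (SD, n = 2 each). None of these 4 passed as lower than at day 10, with adjusted p of 0.589, 0.825 and 0.896 for Patl2, Paqr8 and Neo1, and Ppp2r5c was 6.04 points higher (adjusted p = 0.0446). For Patl2 the call from t=0 was lost without N9 at t=0 (adjusted p = 0.0955).

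At the other 5 of the 12 tiles the clones did not pass the test from t=0. The tile 2532 bp from Tet1, which encodes a dioxygenase that oxidises methylcytosine (chr10:62890001-62900000), had 28.6%, 21.3% and 28.2% in wild-type iPS stages and 9.43% in bodies. N5 had 19.7% at t=0 and 16.2% in bodies, and N9 20.4% and 18.4%, a change of -2.76 ± 1.09 points (adjusted p = 0.232). Fbxo22, a substrate receptor of a ubiquitin ligase, dropped by 16.1 points in the wild type, and the clones had a change of 0.54 ± 3.19 points (adjusted p = 0.860). The remaining tiles, in Acnat1 and in Zfp993 and 500 bp from Dcp2, had clone changes of -0.30, -2.83 and -2.21 points.

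Ranked by the clones instead, the tile with the largest fall lay in Vwa8, which encodes a mitochondrial ATPase (chr14:79140001-79150000, 152 CpGs). N5 had 51.5%, 24.8%, 28.8% and 27.8% at t=0, day 10, day 25 and in bodies, and N9 had 56.7%, 36.8%, 25.0% and 26.5%. The wild type had 40.6%, 34.4% and 36.0% in iPS stages and 23.5% in bodies, so the clones were the higher lines at t=0 and ended within a few points of the wild type. Their change from t=0 was -26.9 ± 4.63 points (adjusted p = 1.62e-06), and most of it was present by day 10. From day 10 to bodies the change was -3.66 points (adjusted p = 0.238).

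Apobec3, an antiviral cytidine deaminase, and Drosha, the nuclease that opens microRNA processing, were among the 12 tiles with the largest falls in the clones. The Apobec3 tile (chr15:79900001-79910000) went from 45.5% to 29.9% in N5 and from 39.4% to 30.3% in N9, a change of -12.3 ± 4.55 points (adjusted p = 0.00166). The Drosha tile (chr15:12830001-12840000) went from 59.4% to 54.9% in N5 and from 66.0% to 46.1% in N9, so most of its change of -12.2 ± 10.8 points came from N9. Its call was lost without N9 at t=0 (adjusted p = 0.0624) or N9 in bodies (0.0719). A second tile of Zfp993 (chr4:146940001-146950000) fell from t=0 with a change of -18.0 ± 7.29 points (adjusted p = 0.000778), at 1.66 calls per CpG. The tile 346 bp from 4930524B15Rik had a change of -12.6 ± 9.01 points, and lost its call without N5 in bodies (adjusted p = 0.389) or N9 at t=0 (0.0720).

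The 52 tiles that fell had changes between -26.9 and -3.49 points, with a median of -9.19, and both clones were lower at each. Of these, 41 lay in protein-coding genes (78.8%, against 53.1% of the 965 tiles and 49.5% of all tiles) and 29 had a wild-type drop of 10 points or more. Their bodies were still above the clones' day 25 mean at 50 of 52, with 41 called higher than day 25, where 99.8% of all tiles were. Against day 10, 7 of the 52 were called lower, beside 0.0269% of all tiles. Another 6 were called higher than day 10, beside 88.8% of all tiles. The 52 tiles had been chosen for low clone bodies against t=0, and the same bodies enter these comparisons. Of the 52 calls, 51 held with the clone as a block and 37 by limma, and between 28 and 37 held when a library of t=0 or bodies was left out, with 16 holding under each of these alternatives.

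At the 6 tiles with the largest wild-type drops among those where neither clone was lower, the lines parted by this choice. Nsd1 encodes a methyltransferase of histone H3 lysine 36, and its tile (chr13:55200001-55210000) had 27.7%, 34.1% and 30.1% in wild-type iPS stages and 16.9% in bodies. N5 had 31.9% at t=0 and 33.1% in bodies, and N9 32.0% and 33.5%, a change of 1.35 ± 0.17 points (adjusted p = 0.665). Both clones were at 13.2% and 13.5% at day 25, below the wild-type bodies, before that return. Dennd2c, whose product belongs to a family of exchange factors for RAB GTPases, went from 37.6% to 38.4% in N5 and from 34.5% to 47.0% in N9, where the wild type had 39.2%, 42.5% and 38.1% in iPS stages and 26.9% in bodies (adjusted p of the clones = 0.0510). The tiles in Rab31, a GTPase of vesicle traffic, and Col11a1, a fibrillar collagen, and those 2401 bp from Zfp280b and 581230 bp from Cblb had clone changes between 2.59 and 3.84 points (adjusted p 0.209 to 0.623).

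The 965 tiles formed 902 runs, of which 849 were single tiles, 44 held 2 neighbours, 8 held 3 and 1 held 4. The run of 4 covered Myo10, a filopodial myosin (chr15:25750001-25790000), with wild-type changes of -11.6, -12.2, -8.94 and -6.75 points from its first to its last tile. In the clones the first tile fell by 4.36 points (adjusted p = 0.00928) and the last by 9.08 points (adjusted p = 0.0244). Both calls were lost without N5 at t=0 (adjusted p = 0.0958 and 0.110). That of the last was also lost without N9 at t=0 (0.0757) or in bodies (0.193) and by limma (0.0562). The 2 in the middle had changes of -1.01 and 1.12 points (adjusted p = 0.614 and 0.685), so the wild-type drop ran over 4 tiles and the calls in the clones were at the first and the last. In Prrc2b the middle tile of 3 fell, from 36.7% to 27.9% in N5 and from 36.4% to 24.7% in N9 (-10.3 ± 2.06 points, adjusted p = 0.00220), while its neighbours had changes of 3.78 and 2.94 points. The 3 tiles in Etl4 had clone changes of 0.92, -2.04 and 2.43 points, and the 3 near Jarid2, a partner of the Polycomb complex PRC2, had 3.30, 5.27 and -0.06 points, with adjusted p from 0.0608 to 0.967.

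The run over Aire and Dnmt3l joined an immune regulator of the thymus to the DNMT3 cofactor. The tile in Aire alone (chr10:78030001-78040000) fell in the clones, from 64.6% to 55.3% in N5 and from 60.3% to 50.8% in N9 (-9.39 ± 0.18 points, adjusted p = 0.0134). This call was lost by limma (adjusted p = 0.0578) and without N5 at t=0 (0.131) or N9 in bodies (0.125). The next tile, over both genes, had wild-type levels of 35.9%, 37.8% and 29.0% in iPS stages and 27.1% in bodies, and the clones had a change of -3.91 ± 0.20 points (adjusted p = 0.186). The last, in Dnmt3l, had 45.1%, 40.7% and 41.3% and then 34.5% in the wild type, and went from 53.7% to 51.4% in N5 and from 56.0% to 45.6% in N9 (adjusted p = 0.0727).

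Pluripotency genes were the list with the highest share of these tiles. Of 75 eligible tiles in 23 pluripotency genes, 7 were among the 965 (9.33%, against 0.481% of tiles in protein-coding genes), in Pou5f1, Esrrb (2 tiles), Dppa4, Dppa5a, Gdf3 and Tdgf1. In edgeR's test 0 of the 75 fell in clone bodies from t=0 (limma gave 0 as well, as did unadjusted p under 0.05 in both). Only 0.18% of tiles in genes fell, and the other lists, Zfp genes aside, also had 0, so this is not particular to pluripotency genes. Of the 75 tiles, 43 rose (57.3%, against 65.4% of tiles in genes). The Pou5f1 tile (chr17:35500001-35510000, 149 CpGs) had 15.1%, 16.1% and 13.9% in wild-type iPS stages and 6.21% in bodies. N5 had 15.9% at t=0 and 19.4% in bodies, and N9 17.8% and 19.4%, a change of 2.55 ± 1.35 points (adjusted p = 0.274). The wild-type bodies were thus the lowest of the 12 libraries there, and the clone bodies the highest.

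Esrrb, an orphan nuclear receptor of naive pluripotency, had the largest wild-type drop of the list. Its first tile (chr12:86470001-86480000) was at 19.3%, 20.3% and 22.0% in wild-type iPS stages and 8.62% in bodies. N5 went from 14.2% at t=0 to 4.35% at day 25 and 20.4% in bodies, and N9 from 14.5% to 4.75% and 21.8%. The clones rose from t=0 (6.74 ± 0.77 points, adjusted p = 0.00281) and from day 10 (10.99 points, adjusted p = 7.63e-07) where the wild type had dropped. The second tile (chr12:86490001-86500000) rose from t=0 as well, by 8.40 ± 7.78 points (adjusted p = 0.0370), though not by limma (0.154), nor without N5 at t=0 (0.0534), N9 at t=0 (0.223) or N9 in bodies (0.323).

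Dppa5a, a marker of undifferentiated cells, had 20.8%, 19.9% and 21.2% in wild-type iPS stages and 10.7% in bodies, against 17.3% and 22.4% in the bodies of N5 and N9. Tdgf1 had 17.8%, 19.3% and 16.8% and then 10.3% in the wild type, against 14.1% and 16.5% in clone bodies, which were 3.68 points below their t=0 mean (adjusted p = 0.0783). Gdf3, a ligand of the TGF-beta family, had changes of -5.02 points in the wild type and 3.19 points in the clones, and Dppa4, a factor of early embryonic cells, had -7.94 and 3.18 points. Bodies of both clones were above wild-type bodies at each of the 7 pluripotency tiles. The same held at 913 of the 965 tiles, which were chosen for low wild-type bodies, so it is not particular to these genes.

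**Figure D4:**
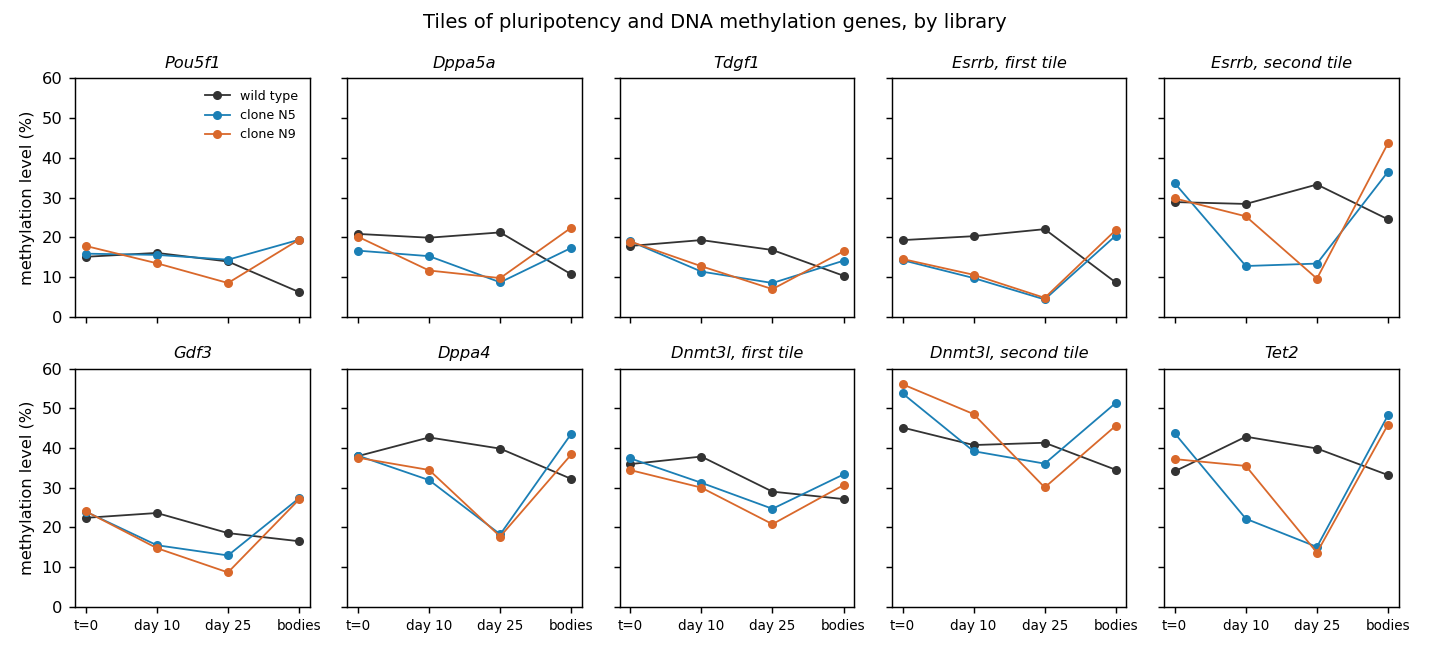
Methylation level (vertical axis, %) at 4 stages (horizontal axis) in the wild type and clones N5 and N9, 1 panel per tile of a pluripotency gene or DNA methylation gene; each point is 1 library. The wild type ends at its lowest level in each panel, and both clones end above it, but the tiles were chosen by their low wild-type bodies. In the first Esrrb tile the wild type ends at 8.62% and the clones at 20.4% and 21.8%.

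DNA methylation genes gave 3 of 68 tiles (4.41%): the pair over Dnmt3l and 1 in Tet2, a dioxygenase, at which the change was -5.76 points in the wild type and 6.64 points in the clones (adjusted p = 0.0852). Among lineage lists, the endoderm list gave 1 of 114 tiles, at Apoe, which encodes a lipid carrier, with a clone change of -4.45 points (adjusted p = 0.0657). The fibroblast list gave 2 of 116, in Fn1 and Fbn1, the surface epithelium list 1 of 68, in Cdh1, and the imprinted list 1 of 106, at Gnas. The cardiac (182 tiles), endothelial (132), neural (119), blood (98), basement membrane (99), primitive streak (30), trophoblast (25), germline (110) and Hox (44) lists gave 0. Over tiles in protein-coding genes the share was 0.481%, so counts of 0 to 2 in lists of these sizes do not set one lineage apart from another. Of 1516 tiles in Zfp genes, 18 were members (1.19%). Over all 1516, members or not, 7 fell in clone bodies, beside 192 of the 106485 tiles in protein-coding genes. Feeder cells are fibroblasts in most cultures, and the fibroblast list's tiles were at 61.9% and 62.9% in N5 and N9 at t=0 against 58.4% in the wild type, beside 61.2%, 61.5% and 57.0% over tiles in genes.

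Before aggregation the clones lost methylation at these tiles as they did elsewhere. At day 25, 916 tiles (94.9%, against 97.8% of all tiles) were lower and 0 higher than at t=0 (0 unadjusted or by limma; 0.000465% of all tiles), the median change being -15.2 points (N5) and -15.8 points (N9) where all tiles had -16.2 and -17.2. At day 10, 240 tiles (24.9%, against 12.3%) were lower and 1 higher than at t=0 (0.104%, against 0.0228%), with medians of -5.87 and -4.64 against -4.67 and -4.28. The day 10 count rests on single libraries: it was 1.04% without N5 at day 10, the library read on another flow cell than N5 at t=0, and 4.15% and 4.77% without N5 or N9 at t=0. limma called 0 of these tiles at day 10, with 365 at an unadjusted p under 0.05.

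The tiles held more CpGs than others, with a median of 108 against 77, and lower iPS levels, with a median of 45.6% against 69.8%. A gene start lay in 20.6% of them against 11.0% of all tiles. Of 284 RefSeq promoters of 238 genes that start in these tiles, 221 had 20 or more calls in each library, 192 of those were under 10% methylated in the wild type at t=0, and 24 were 5 or more points lower in wild-type bodies, with a median change of -0.19 points. Shallow tiles were more frequent among them: 23.2% had fewer than 4 calls per CpG on average, against 10.8% of all tiles. Each autosome held some, from 28 of 10040 tiles on chromosome 14 (0.279%) to 54 of 9295 on chromosome 15 (0.581%).

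Within a tile the wild-type change was uneven. Of the 5439 steps of 1 kb in these tiles with 20 or more calls in each library, 19.9%, 18.2% and 20.5% were under 20% methylated in the wild-type iPS stages and 37.5% in wild-type bodies. In N5 the share of such low steps went from 22.6% at t=0 to 45.4% at day 25 and back to 1306 of 5439 steps in bodies, and in N9 from 22.8% to 45.9% and 20.3%. Over all tiles 4.07% of steps were low in the wild type at t=0 and 3.54% in bodies. In the 594 tiles with 4 or more measured steps, the step with the deepest wild-type drop had a median change of -19.8 points, from 35.3% to 14.4%, and 69.6% of steps were lower. The clones had median changes at that step of -2.55 points in N5 and -1.06 in N9, and both were lower at 210 of the 594 (35.4%). Among the 43 of these tiles that fell in clone bodies, both clones were lower at the same step in 37, with medians of -14.98 and -13.04 points; the step was taken from the wild type, but these tiles had been chosen for their fall in the clones.

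Single tiles show both patterns. Along the Skap1 tile the wild-type drop covered the third to the tenth kb and was deepest in the sixth, where levels of 45.9%, 57.1% and 33.3% in iPS stages met 12.0% in bodies. In the same kb N5 went from 59.7% to 22.8% and N9 from 74.0% to 20.3%. Along the Tdgf1 tile the drop lay over the fourth kb and over the seventh to the ninth. In the ninth kb the wild type had 20.0%, 20.2% and 20.8% and then 2.00%, while N5 went from 8.47% to 7.27% and N9 from 8.54% to 7.69%. In the fourth, seventh and eighth kb both clones were lower by more. N5 went from 56.6% to 28.8% in the fourth kb and from 11.6% to 1.39% in the seventh. N9 went from 43.5% to 31.0% and from 11.1% to 2.91% there. Along the first Esrrb tile each measured kb was lower in wild-type bodies than the iPS mean, and in the eighth kb the level went from 16.4% to 38.4% in N5 and from 18.95% to 42.96% in N9. These kb values are single-library levels with no test.

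**Figure D5:**
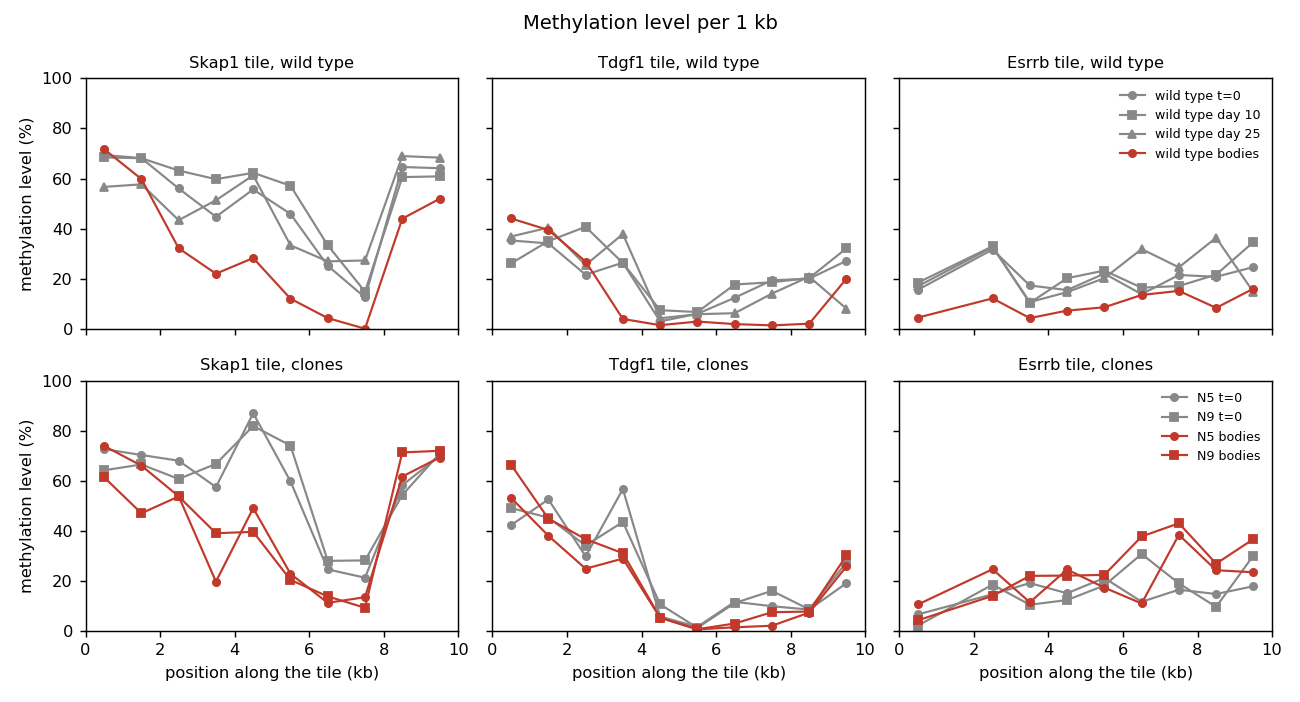
Methylation level per kb (vertical axis, %) along 3 tiles (horizontal axis, position in the tile, kb) in the wild type (top) and in clones N5 and N9 (bottom), with iPS cells in grey and bodies in red. In the sixth kb of the Skap1 tile bodies reach 12.0% in the wild type, 22.8% in N5 and 20.3% in N9; in the Esrrb tile the clone bodies lie at or above t=0 in most steps.

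The 284 promoters of these tiles were searched on both strands for 6 short motifs, each named for a family of transcription factors, and set beside the 29817 promoters that start in eligible tiles. The KLF motif, with the letters CACCC, was found in 62.7% of the promoters of these tiles and in 58.6% of the larger set. For the bHLH motif, which reads CAGCTG, the shares were 17.6% and 16.7%. The TEAD motif was searched as GGAATG and occurred in 12.7% and 14.4%. The GATA motif was searched as AGATAA and occurred in 7.75% and 10.8%. For AP-1, spelled TGANTCA where N is any base, they were 6.69% and 7.70%. For the forkhead family the letters were TGTTTAC, and the shares were 2.46% and 3.57%. The share was above that of the larger set for KLF and bHLH and below it for the other four, and these differences were not tested. A match is a run of letters, not a site of binding.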

How the data were processed

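Methylation calls were analysed in 12 libraries, 4 stages each of wild-type iPS cells and of a pair of miR-203 knock-in clones. Per the file headers, the authors deposited counts, methylated and total (coverage), for 21875444 CpG positions, not normalized. Per the submitters' processing notes, BWA, Picard 1.91 and build mm10 were used (caller of methylation: not given in the sources used here). Each wild-type stage has a pair of columns, which the titles' shared index and flow cell would make lanes, and the pair was summed as counts. The headers do not say so, and a stage would have 2 wild-type libraries if they were separate.

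Counts were summed over tiles of 10000 bp. Methylated and unmethylated counts of the 8 clone libraries were tested with edgeR 4.0.16, by its quasi-likelihood F test (4 stage groups, 4 residual degrees of freedom, common dispersion 0.00575, 215255 tiles) under R 4.3.3, with Benjamini-Hochberg adjustment over all tiles and a threshold of 0.05. N5 and N9 are taken as the replicates of a stage; nothing says whether a stage was sampled from separate cultures, so p-values measure the spread between these clones. On simulated counts for bodies against t=0, 63% of tiles lowered by 1 log2 odds and 100% lowered by 2 were recovered, with 8 false calls among 215255 tiles. The simulation had no stage effect outside its 200 changed tiles, whereas in the data 62.0% of tiles rose. The false calls of the simulation therefore do not give the number among the tiles called here. Tiles of the lowest and highest levels were not among the changed ones, so recovery at such levels was not simulated. Falls of less than 1 log2 odds were not simulated either, so a tile that was not called may have fallen by less. The last tile of the Dnmt3l run, for example, had a clone change of -6.41 points, or -0.38 log2 odds, and was not called (edgeR adjusted p = 0.0727).

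Named tiles are the 12 largest wild-type drops, the 12 largest called falls with both clones lower, the 6 largest drops with neither clone lower, the 5 longest runs (of the 8 tied at 3 tiles, the 4 with the largest mean wild-type drop), 3 on each side of the threshold, and every list gene. The members, the gene lists and this rule were chosen with earlier results of these data known. Tiles take the names of overlapping or nearest RefSeq genes (GRCm38.p6). The clone pairs samples across stages, since the labels give the same cell line at each; correlations of the clones' deviations between stages ran from -0.094 to 0.026. Alternatives were the clone as a block, limma 3.58.1 on logits (offset 1 call), all 12 libraries, each clone library left out, other call minima, a drop of 10 points, shared CpGs, a cap of 50 calls and no chromosome 8. Day 10 in place of t=0, and leaving out tiles under 4 calls per CpG, were added after seeing the data.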

Additional observations from a re-analysis of the deposited data

Results flagged for a closer look

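At the 6 tiles named because neither clone was lower, the wild type and the clones moved opposite ways from the iPS cells to bodies, with the wild-type library lower and both clones higher. The mean clone change from t=0 was 1.35 points at Nsd1, 6.63 at Dennd2c, 3.84 at Rab31, 2.78 near Zfp280b, 3.65 at Col11a1 and 2.59 near Cblb. The opposite course was fixed by the choice of these tiles, which used the wild-type values and the clone values. The difference between wild type and clones was therefore not tested, and none of the 6 clone changes passed the test by itself.

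Outside the tiles, reads on the first 3.5 Mb of chromosome Y, set against chromosome 5, gave coverage ratios of 0.0370 (N5) and 0.0386 (N9) before doxycycline and 0.0122 and 0.0103 at day 25. The 4 wild-type libraries had 0.0007 to 0.0018.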

How the results depend on the processing

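Each result was recomputed under the alternatives that apply to it, and values within 1.5 times the reported one (for the median, within the SD of the clones' medians) are counted as unmoved: 91 were, 30 were not, and in 2 the median change of the tiles in the clones changed sign, from 2.15 points to -1.63 with a wild-type drop of 10 points and to -5.09 after subtracting the median of all tiles. A minimum of 30 calls gave 1561 tiles, of which 3.27% fell from t=0 to clone bodies, 0.448% fell against the iPS mean and 15.2% were lower at day 10, with a median change of 3.69 points. A minimum of 300 calls gave 578 tiles, of which 7.79% rose from t=0 and 43.6% were lower at day 10, with a median of 0.17 points. A wild-type drop of 10 points gave 120 tiles, of which 24.2% fell and 2.50% rose from t=0, 5.00% fell against the iPS mean and 40% were lower at day 10. Shared CpGs gave 948 tiles, 627 of them among the 965, and 0.422% fell against the iPS mean. limma called 0.00% of tiles lower at day 10. With day 10 in place of t=0, 1.04% fell and 59.1% rose, with a median of 7.43 points. The median was 1.68 points in N5 alone and 1.23 without tiles under 4 calls per CpG.

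Leaving out 1 clone library at a time gave 3.11% to 5.80% of tiles fallen and 6.94% to 14.5% risen from t=0 to bodies, 0.518% to 0.933% fallen against the iPS mean, 0.00% to 0.207% fallen against day 25, and 87.6% to 95.2% and 1.04% to 26.9% lower at day 25 and day 10 than at t=0. A group left with 1 library is assumed to vary like the others. With the clone as a replicate block, the pairing the labels give, 5.28% fell and 13.4% rose from t=0, 0.622% fell against the iPS mean, 0.00% against day 25, and 94.6% and 23.8% were lower at days 25 and 10, so no count moved by over 1.5 times.

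The part of depth in these calls was not tested. At 100 to 200 calls in the thinnest library, 1.23% of 324 tiles were called lower in clone bodies and 23.1% higher, and at 800 or more 8.81% of 261 were called lower and 5.75% higher.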
